A study of Mus musculus with 6 samples.

Results

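Collagens are the main structural proteins of the extracellular matrix, and the genes described here are the mouse collagen genes measured in whole embryos that had lost Brg1 and in their controls. They were chosen by name: every non-control spot of the array whose gene name was Col, a number, the letter a and a number. That gave 40 genes, measured by 78 probes, of 19505 genes named on the array. One probe stood for each gene, the brightest on average, and each level is its log2 processed signal minus the 75th percentile of the same array, called the relative log2 signal below. Such a level is compared only with the same probe on another array.

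Collagen chains wind around each other into a triple helix, which needs a glycine at a fixed spacing along each chain, and most collagens are built from different chains encoded by different genes. Fibrillar collagens (types I, II, III, V and XI, with the minor types XXIV and XXVII) form the fibrils of mesenchyme, skin, bone and cartilage, whereas type IV forms the sheet-like network of basement membranes under epithelia and vessels. Type VI forms beaded microfilaments, fibril-associated collagens such as types IX and XIV sit on the surface of fibrils, and other members span the cell membrane or form short-chain networks.

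The glycine repeat can be read in the array's own probes, and 3 probe sequences are shown because they carry the feature that defines the family. Glycine codons begin with GG, so a coding stretch of the triple helix has a GGN codon every 9 bases. Of 41174 probes of 60 bases, 3 hold GGN at that spacing from end to end, and each of them was designed for a collagen. The capitals mark the GGN codons, 6 in the first and second probe and 7 in the last.
Col11a2: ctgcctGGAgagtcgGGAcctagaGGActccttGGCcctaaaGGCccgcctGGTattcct
Col5a1: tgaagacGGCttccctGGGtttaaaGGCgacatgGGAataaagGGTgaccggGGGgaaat
Col5a3: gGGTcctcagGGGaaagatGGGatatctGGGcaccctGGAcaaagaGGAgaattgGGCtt
By the array's annotation on build mm7, these probes lie at chr17:32131401-32131567 on the plus strand, chr2:27994034-27996457 on the plus strand and chr9:20655471-20656200 on the minus strand. All 3 intervals are longer than the probe itself. Each sequence is that of a second, dimmer probe of its gene. The difference between the genotypes on it was 0.96 for Col11a2 (adjusted p = 0.0965) and −0.61 for Col5a1 (adjusted p = 0.271) on the log2 scale. The Col5a3 probe was above background on 2 arrays and was not tested.

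The study used 1-colour Agilent arrays on RNA of whole embryos at embryonic day 8.5, with 3 biological replicates of each genotype. The mutant embryos were Brg1d/d, the conditional knockout of Brg1, and the controls were Brg1fl/fl embryos, with the floxed gene on both copies and described as the wild-type control. In both groups tamoxifen had been injected into the peritoneum of the dam. The Cre line, the dose and the time of injection, and whether an array held 1 embryo or a pool are not stated in the labels. P-values therefore measure the spread between these samples. Brg1 is the ATPase of the SWI/SNF chromatin remodelling complex and is encoded by Smarca4. Its brightest probe stood at 1.49, 2.65 and 2.0 in Brg1d/d samples 1, 2 and 3 and at 5.28, 4.45 and 4.50 in the controls, a difference of −2.69 ± 0.36 (SE, n = 3 and 3; limma adjusted p = 0.0114). The other 2 Smarca4 probes differed by −2.25 (adjusted p = 0.0054) and −2.08 (adjusted p = 0.0129).

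Between 68.5% and 73.5% of spots were well above background on each array. Brg1d/d samples 1 and 3 stood apart technically: each was scanned on a day of its own, with a brightest labelling control of 12950 and 6968 against 219065 to 249079 on the other 4 arrays. The 3 controls and Brg1d/d sample 2 were scanned on the same day, and the controls shared 1 of the 4 slides. For this reason the difference between Brg1d/d sample 2 and the mean of the controls is given as the same-day difference, without a test. Control 1 stood apart in the markers of the yolk sac endoderm, an extraembryonic layer, whose summed signal was 89.7 times the array's 75th percentile there against 391.6 and 407 in the other 2 controls and 303 to 356 in the mutants. A probe was tested when 1 genotype or both had all 3 arrays well above background, with limma over 27854 probes and Benjamini-Hochberg adjustment over all of them, and a gene is called changed here at an adjusted p under 0.05. In all, 2608 probes passed, 1210 of them lower and 1398 higher in Brg1d/d. Scaled to array medians, 1427 of 2530 were lower.

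More collagen genes fell than rose in the Brg1d/d embryos. Of the 32 collagens well above background on all 6 arrays, 10 fell and 1, Col5a3, rose, while over all 14200 such genes 5.01% fell and 4.54% rose. Their median difference was −0.48 on the log2 scale, with 24 below 0 and 8 above, against a median of 0.06 over all such genes, of which 6495 were below 0 and 7705 above. The same-day median was −0.58. In 18 of the 32 the mutant samples all lay below the controls and in 2 all lay above them, and over all such genes these shares were 19.3% and 22.0%. In RNA of a whole embryo, fewer cells of a type and less RNA per cell cannot be told apart.

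A wider count takes in 2 collagens, Col24a1 and Col6a1, which were tested because all 3 controls were above background while 1 and 2 of the mutant samples were. Over these 34 genes, 12 fell and 1 rose, where 5.30% of the 15019 genes tested fell and 5.24% rose. The fitted differences of the 12 that fell were from 2.10-fold for Col4a5 to 4.72-fold for Col6a3. The size depends on the processing for the dim genes. The normexp correction used here adds an offset of 50 to every signal, which by itself draws differences of dim probes towards 0. After it all 12 were still called lower, but Col6a1 had a log2 difference of −0.66, Col24a1 of −0.70, Col4a5 of −0.83 and Col8a2 of −0.89, all under 2-fold. The share of the offset in these values was not tested. For each of the 13 called genes the genotypes did not overlap, so that Brg1d/d sample 2 necessarily lay beyond all 3 controls scanned with it. A call with 3 and 3 samples favours genes without overlap, so neither observation is separate support for the calls. The other 21 did not pass, 14 with differences below 0 and 7 above. Of the 6 collagens that were not tested, Col4a3, Col19a1 and Col28a1 were above background on no array. Col12a1 was above background on Brg1d/d samples 1 and 2, Col15a1 on control 1, and Col10a1 on Brg1d/d sample 2, where its relative log2 signal was −4.25 against −7.49 and −7.14 in the other mutants and −9.03 to −8.64 in the controls.

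**Figure D1:**
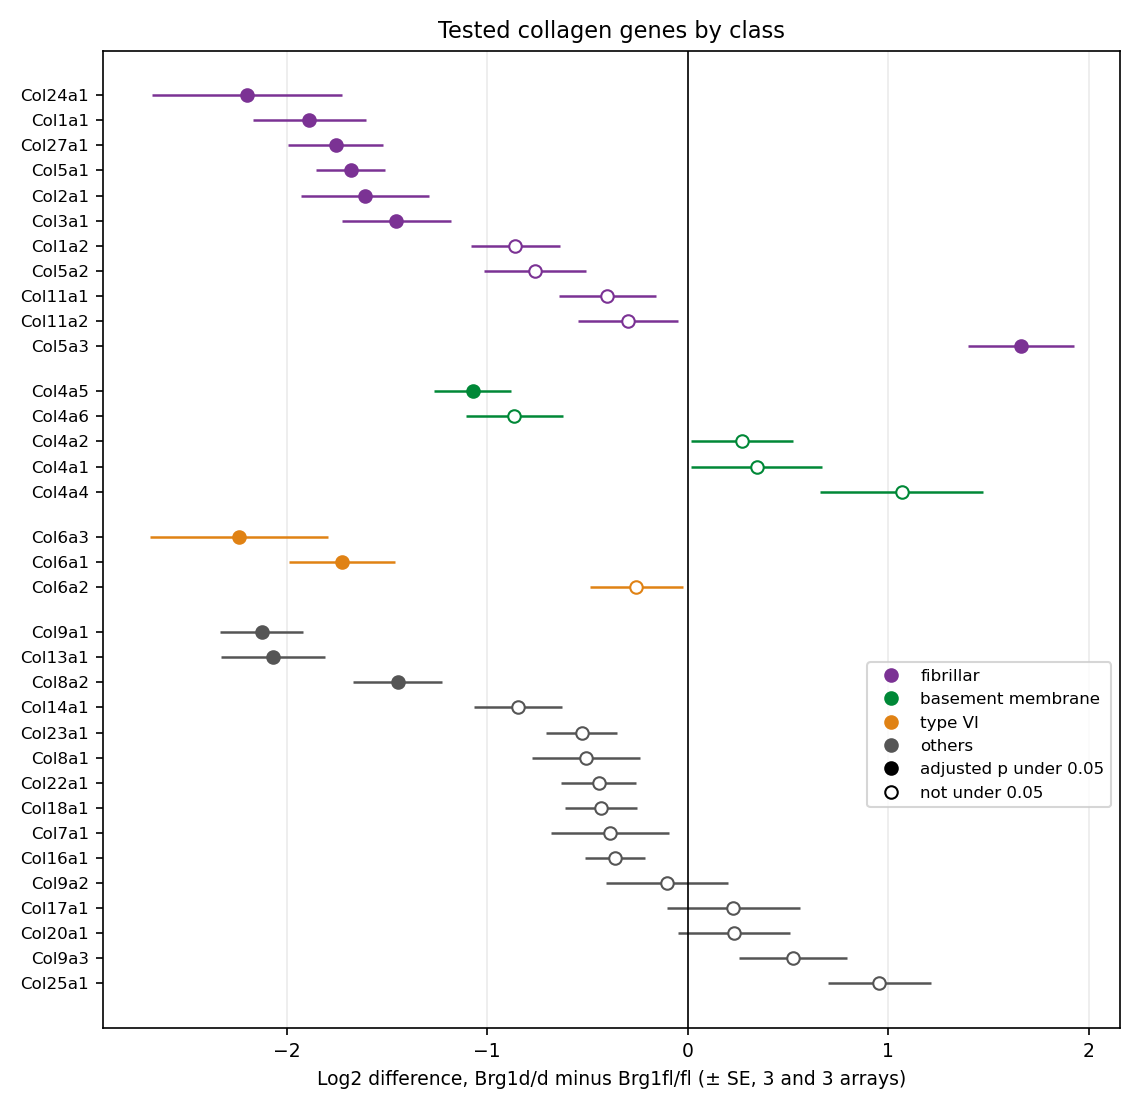
Log2 difference between the Brg1d/d and Brg1fl/fl means (x axis, ± SE, 3 and 3 arrays) for the 34 tested collagen genes, one row per gene and one colour per class; filled points passed an adjusted p of 0.05. The fibrillar genes, with Col5a3 as the exception, lie to the left of 0, whereas the basement membrane genes lie on both sides.

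The fibrillar class held 7 of the 13 calls. Of its 11 genes, all tested, 6 fell (Col1a1, Col2a1, Col3a1, Col5a1, Col24a1 and Col27a1), 1 rose (Col5a3), and Col1a2, Col5a2, Col11a1 and Col11a2 did not pass. The median over the 10 above background on all arrays was −1.16. Whether classes differ from each other was not tested.

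Col1a1 encodes the more abundant chain of type I collagen, the bulk collagen of skin and bone. Its relative log2 signal was 0.54, 0.96 and 0.69 in Brg1d/d samples 1, 2 and 3, and 2.28, 3.20 and 2.38 in the controls. The lowest control lay more than a log2 unit above the highest mutant, and the difference was −1.89 ± 0.28 (3.70-fold lower, adjusted p = 0.0152; same-day difference −1.65). Col1a2, which encodes the other type I chain, stood at 2.29, 2.91 and 2.55 in the mutants and at 3.18, 3.65 and 3.50 in the controls. These groups did not overlap either, but the difference of −0.86 ± 0.22 did not pass (adjusted p = 0.0604). It passed without Brg1d/d sample 2 (−1.02, adjusted p = 0.0351), without control 1 (−0.99, adjusted p = 0.0405), after normexp correction (−0.90, adjusted p = 0.0310) and with limma's intensity trend and robust fit (adjusted p = 0.0304).

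Col3a1 encodes type III collagen, which accompanies type I in soft and vascular tissue. Its levels were −0.19, 0.01 and −0.05 in the mutants and 0.92, 1.93 and 1.28 in the controls. The mutants lay close together and the controls spread over a log2 unit, with a difference of −1.45 ± 0.27 (2.74-fold lower, adjusted p = 0.0277; same-day −1.36). Col2a1 encodes type II collagen, which the notochord and the sclerotome make before cartilage forms. It stood at 0.51, 0.05 and 0.33 in the mutants against 2.47, 1.96 and 1.28 in the controls, and fell by 1.61 ± 0.32 on the log2 scale (3.05-fold, adjusted p = 0.0320; same-day −1.86). Both tested probes of Col1a1 and both of Col2a1 passed.

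Type V collagen is a minor fibrillar type that starts fibrils and limits their width, and of its 3 genes Col5a3 went the opposite way to Col5a1 and Col5a2. Col5a1 stood at 0.10, 0.45 and 0.07 in the mutants and at 1.96, 1.93 and 1.78 in the controls. Both groups were tight, and the difference was −1.68 ± 0.17 (3.21-fold lower, adjusted p = 0.0050; same-day −1.43). The dimmer tested Col5a1 probe differed by −0.61 without passing (adjusted p = 0.271). Col5a2 differed by −0.76 ± 0.25 and did not pass (adjusted p = 0.103), except without control 1 (−0.97, adjusted p = 0.0412). Col5a3 was −4.10, −4.58 and −4.42 in the mutants and −5.52, −6.22 and −6.34 in the controls. All 3 mutants were above all 3 controls, and the gene rose by 1.66 ± 0.26 on the log2 scale (3.16-fold, adjusted p = 0.0181; same-day 1.44). It was the one collagen called higher, and after normexp background correction its difference was 0.37 and was not called (adjusted p = 0.108).

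The long minor types followed. Col27a1, expressed in developing cartilage, was −3.76, −4.38 and −4.52 in the mutants and −2.31, −2.57 and −2.51 in the controls, with both tested probes lower (−1.76 ± 0.24, 3.38-fold, adjusted p = 0.0114; same-day −1.91). Col24a1 was −6.60, −7.66 and −5.71 in the mutants, of which 1 was above background, and −4.18, −4.71 and −4.49 in the controls. Its fitted difference was −2.20 ± 0.48 (adjusted p = 0.0396) and −0.70 after normexp correction, and since it entered the test through the controls and most mutant values were not above background, its size is not well measured. Col11a1 (−0.40) and Col11a2 (−0.30), the chains of the cartilage fibril type XI, overlapped between genotypes, and the 2 Col11a2 probes had opposite signs (−0.30 and 0.96; 0.33 for the mean of both).

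Of the fibrillar calls, Col5a1 alone passed whichever of the 6 samples was left out (adjusted p 0.0081 to 0.0372). Col1a1 was lost without Brg1d/d sample 1 or 3 (adjusted p up to 0.0753), Col27a1 without Brg1d/d sample 3 or control 2 (up to 0.0544), and both Col2a1 (up to 0.123) and Col5a3 (up to 0.0866) without Brg1d/d sample 1, Brg1d/d sample 3 or control 2. Col3a1 was lost without any of the same 3 or control 3 (up to 0.110), and Col24a1 without Brg1d/d sample 1 or any 1 control (up to 0.132).

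**Figure D2:**
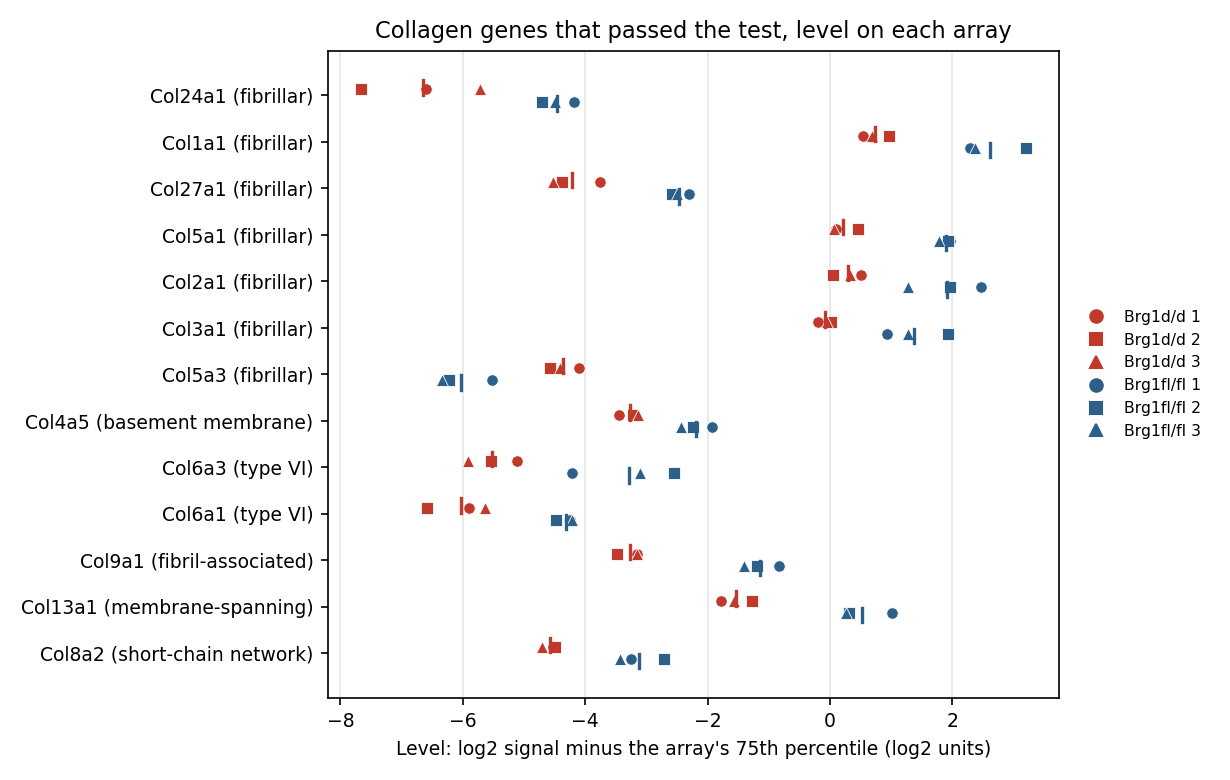
Relative log2 signal (x axis) of the 13 called collagens (rows) in each of the 6 samples; points are arrays, with red for Brg1d/d, blue for Brg1fl/fl and a shape for each replicate, and vertical marks are the group means. Levels are comparable between samples of the same gene and not between genes; in each called gene the 3 mutant points lie apart from the 3 control points.

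Promoter sequences of 4 called genes are printed to set the fibrillar gene that rose beside genes that fell: Col5a3 beside Col5a1, of the same collagen type, then Col3a1 and Col9a1. Each is the 250 bases before a start site, read 5′ to 3′ on the gene's strand, from RefSeq on GRCm38.p6. Of the 40 collagens, 32 had an entry, with 35 windows, and 11 of the 13 called genes were among them. The capitals mark matches on either strand to CCAAT (the CCAAT box), TATAAA (the TATA box), GGGCGG (the GC box) or AACAAT (the core of the SOX site), and overlapping matches run together.
Col5a3, chr9:20815068-20815317, minus strand: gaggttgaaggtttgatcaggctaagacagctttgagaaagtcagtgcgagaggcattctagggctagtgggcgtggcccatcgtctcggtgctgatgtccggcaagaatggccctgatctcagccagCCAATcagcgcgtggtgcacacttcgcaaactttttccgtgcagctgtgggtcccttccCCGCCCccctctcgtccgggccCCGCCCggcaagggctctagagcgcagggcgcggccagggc
Col5a1, chr2:27886175-27886424, plus strand: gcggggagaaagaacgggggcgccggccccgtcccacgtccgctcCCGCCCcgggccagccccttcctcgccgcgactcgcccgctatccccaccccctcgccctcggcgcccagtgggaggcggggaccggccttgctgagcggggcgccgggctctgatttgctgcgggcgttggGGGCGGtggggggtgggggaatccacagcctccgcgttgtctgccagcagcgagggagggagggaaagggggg
Col3a1, chr1:45311288-45311537, plus strand: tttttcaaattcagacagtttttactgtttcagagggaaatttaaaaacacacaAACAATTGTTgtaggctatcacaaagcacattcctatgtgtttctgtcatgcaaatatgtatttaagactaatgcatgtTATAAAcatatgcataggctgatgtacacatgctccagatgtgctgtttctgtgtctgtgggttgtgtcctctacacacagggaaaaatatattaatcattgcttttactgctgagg
Col9a1 upstream start, chr1:24177360-24177609, plus strand: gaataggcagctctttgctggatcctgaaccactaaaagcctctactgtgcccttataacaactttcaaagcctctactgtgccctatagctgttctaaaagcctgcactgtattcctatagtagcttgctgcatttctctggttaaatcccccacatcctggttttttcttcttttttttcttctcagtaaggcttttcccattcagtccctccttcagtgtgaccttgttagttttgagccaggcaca
Col9a1 downstream start, chr1:24194953-24195202, plus strand: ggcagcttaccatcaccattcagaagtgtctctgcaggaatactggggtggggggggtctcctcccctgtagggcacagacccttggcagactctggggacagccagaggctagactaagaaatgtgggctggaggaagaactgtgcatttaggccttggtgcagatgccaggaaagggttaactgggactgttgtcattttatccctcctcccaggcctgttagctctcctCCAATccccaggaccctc
The Col5a3 window held 1 CCAAT and 2 GGGCGG and the Col5a1 window 2 GGGCGG, with a GC content of 62.8% and 76.4%. Col3a1, at 35.2% GC, held 1 TATAAA and 2 AACAAT. The upstream window of Col9a1 held none of the 4 motifs and the downstream one 1 CCAAT. Over the 35 collagen windows, GGGCGG was in 19 (54.3%, against 32.7% of all 32851 windows), CCAAT in 12 (34.3% against 33.8%), TATAAA in 5 (14.3% against 12.4%) and AACAAT in 1 (2.86% against 9.42%). A match is a description of the letters in the window only.

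Among the basement membrane genes, 1 fell and none rose of 5 tested, and the median was 0.27. The ubiquitous chains of type IV collagen, encoded by Col4a1 and Col4a2, did not pass. Col4a1 was 3.08, 2.53 and 2.64 in the mutants and 1.74, 2.62 and 2.86 in the controls, so that controls 2 and 3 lay within the mutant range and control 1 lay below it. The difference was 0.34 ± 0.33 (adjusted p = 0.487), and 0.0098 without control 1. Col4a2 behaved alike in the same samples, with a difference of 0.27 ± 0.25 (adjusted p = 0.480). Control 1 minus the mean of the other controls was −1.0 for Col4a1 and −0.75 for Col4a2. The parietal endoderm, which makes much of the type IV collagen around the embryo, had none of its 7 markers called, and their summed signal was 23.3 to 28.2 in the mutants and 19.7, 27.7 and 30.6 in controls 1, 2 and 3.

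Of the minor type IV chains, Col4a5 was the one that passed. It stood at −3.45, −3.22 and −3.14 in the mutants and at −1.92, −2.24 and −2.44 in the controls, and fell by 1.07 ± 0.19 (2.10-fold, adjusted p = 0.0254; same-day −1.02). This call was lost without Brg1d/d sample 1, Brg1d/d sample 3 or control 2 (adjusted p up to 0.105). Col4a6, its neighbour in the genome and its partner in basement membranes of smooth muscle, had a difference of −0.86 without passing (adjusted p = 0.0734), and its 3 probes disagreed in sign (−0.86, −0.62 and 0.38). Col4a4 was higher by 1.07 ± 0.41 without passing (adjusted p = 0.134). Its values were 0.59 and 0.31 in Brg1d/d samples 1 and 3 but −0.93 in sample 2, next to −0.87, −1.36 and −1.0 in the controls, so that the same-day difference was 0.15. Without Brg1d/d sample 2 it passed as higher (1.53, adjusted p = 0.0197).

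Both type VI genes that fell were dim. Col6a3 encodes the largest chain of the type VI microfilament, and its levels were −5.12, −5.54 and −5.92 in the mutants and −4.22, −2.55 and −3.10 in the controls. Control 1 minus the mean of the other controls was −1.39, and the difference between genotypes was −2.24 ± 0.44 (4.72-fold lower, adjusted p = 0.0323; same-day −2.25; −1.06 after normexp correction). Col6a1 was −5.90, −6.58 and −5.63 in the mutants, 2 of which were above background, and −4.24, −4.47 and −4.22 in the controls (−1.72 ± 0.27, adjusted p = 0.0164). It too entered the test through the controls; Brg1d/d sample 2, at −6.58, gave a same-day difference of −2.27, and normexp correction gave −0.66, so that its size is not well measured. Its neighbour Col6a2 overlapped between genotypes on its brightest probe (−0.26, adjusted p = 0.468), while its dimmer probe passed as lower (−0.83, adjusted p = 0.0480). The Col6a3 call was lost without Brg1d/d sample 1, Brg1d/d sample 3, control 2 or control 3 (adjusted p up to 0.119), and that of Col6a1 without Brg1d/d sample 1 or control 2 (up to 0.0705).

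Of 15 tested genes in the other classes, 3 fell and none rose, and the median was −0.43. Col9a1 encodes a chain of type IX collagen, which decorates type II fibrils. It stood at −3.16, −3.48 and −3.16 in the mutants and at −0.83, −1.19 and −1.40 in the controls. The groups were well apart, and the difference of −2.12 ± 0.21 (4.36-fold lower, adjusted p = 0.0046; same-day −2.34) passed without any 1 of the samples (adjusted p 0.0050 to 0.0309).

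Col13a1 encodes a collagen that spans the membrane at adhesion sites and at the nerve-muscle junction. Its levels were −1.78, −1.28 and −1.57 in the mutants and 1.01, 0.31 and 0.25 in the controls. Both of its probes passed, the brighter with −2.07 ± 0.26 (4.20-fold lower, adjusted p = 0.0094; same-day −1.80), which without Brg1d/d sample 1 came to an adjusted p of 0.0508. Col8a2, a short-chain collagen of vessel walls and of the cornea, stood at −4.53, −4.50 and −4.70 in the mutants and at −3.25, −2.71 and −3.43 in the controls. It fell by 1.45 ± 0.22 on the log2 scale (2.73-fold, adjusted p = 0.0160; same-day −1.37), a call lost without Brg1d/d sample 1, Brg1d/d sample 3 or control 2 (adjusted p up to 0.0773).

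Col18a1 encodes the basement membrane collagen from which endostatin is cut. It stood at 4.46, 4.60 and 4.49 in the mutants and at 5.24, 4.81 and 4.79 in the controls. The genotypes did not overlap, yet the difference of −0.43 ± 0.18 did not pass (adjusted p = 0.157). Among the fibril-associated genes that did not pass, Col14a1 had −0.85 (adjusted p = 0.0617; −1.04 and 0.0481 without control 3), Col22a1 −0.44, Col16a1 −0.36, Col9a2 −0.10, Col20a1 0.23 and Col9a3 0.52. Of the remaining membrane-spanning genes, Col23a1 had −0.53, with 1 dimmer probe of 3 called lower (−0.63), Col17a1 had 0.23 and Col25a1 had 0.96 ± 0.26 (adjusted p = 0.0661), with all mutants above all controls. Col8a1 (−0.51) and Col7a1 (−0.39), the anchoring-fibril gene, overlapped between genotypes.

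Collagens of more than 1 chain allow a comparison within each array, since the difference between partner chains does not depend on how an array was scaled. In 9 such pairs, the exact two-sided permutation test of 3 against 3 samples cannot go below p = 0.1, which is 0.15 after Benjamini-Hochberg adjustment over the 9 pairs. Col1a1 minus Col1a2 was −1.76, −1.94 and −1.86 in the mutants and −0.90, −0.46 and −1.12 in the controls. On the brightest probes, this gap differed between genotypes by −1.03 ± 0.20 (exact p = 0.1), without overlap. The dimmer tested Col1a1 probe had a difference of −1.46 against −1.89 for the brightest, so the size of the gap depends on the probe.

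A wider gap appeared in type IX. Col9a1 minus Col9a3 was 0.00, −0.05 and −0.23 in the mutants against 2.35, 2.80 and 2.51 in the controls (−2.65 ± 0.15), and Col9a1 minus Col9a2 differed by −2.02 ± 0.24. Col5a1 minus Col5a3 differed by −3.34 ± 0.33, Col5a1 minus Col5a2 by −0.92 ± 0.36 and Col8a1 minus Col8a2 by 0.94 ± 0.37, each without overlap and with an exact p of 0.1. The dimmer tested Col5a1 probe had a difference of −0.61 against −1.68 for the brightest and −0.76 for Col5a2. The gap between Col5a1 and Col5a2 therefore rests on the probe chosen. The gap to Col5a3 rests in part on a dim gene, whose difference was 0.37 after normexp correction. The other 3 pairs overlapped: Col4a1 minus Col4a2 (0.07 ± 0.13, exact p = 0.7), Col4a5 minus Col4a6 (−0.21 ± 0.16, exact p = 0.3) and Col11a1 minus Col11a2 (−0.10 ± 0.25, exact p = 1).

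**Figure D3:**
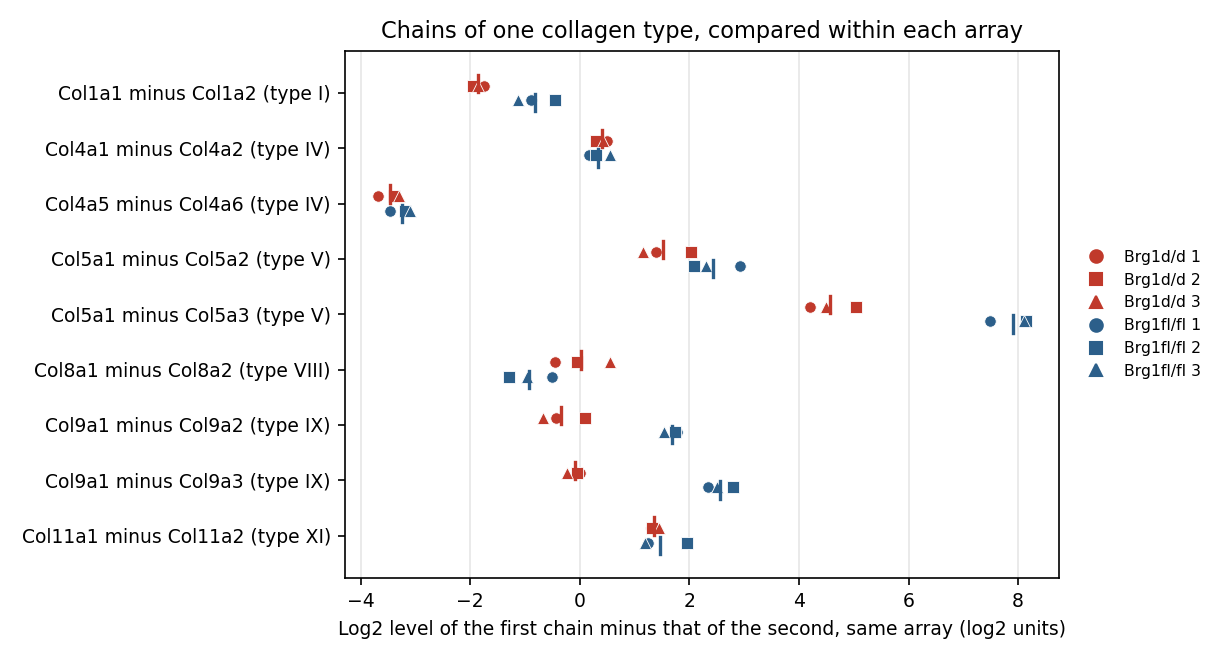
Difference in relative log2 signal between the 2 chains of a collagen within each array (x axis) for 9 pairs (rows); points are the 6 samples, red for Brg1d/d and blue for Brg1fl/fl, and vertical marks the group means. The mutant and control points are apart in 6 pairs, such as Col9a1 minus Col9a3, and mixed for Col4a1 minus Col4a2, Col4a5 minus Col4a6 and Col11a1 minus Col11a2.

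Genes that act on collagens were read from 6 lists. Over all 15019 genes tested, 5.30% fell and 5.24% rose. The counts in these lists, in the collagen classes and in the marker lists below are to be read beside those shares. Of the folding and modification genes, 3 fell and none rose of 19 tested, and the median over the 18 above background on all arrays was −0.04. P4ha2, a prolyl hydroxylase subunit that stabilises the triple helix, was 1.56, 1.66 and 1.42 in the mutants and 3.27, 3.29 and 2.88 in the controls (−1.60 ± 0.18, adjusted p = 0.0067). Serpinh1, the collagen chaperone Hsp47, differed by −1.24 (adjusted p = 0.0126), and the lysyl hydroxylase gene Plod2 by −0.91 (adjusted p = 0.0423).

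Outside the cell, procollagen is trimmed and cross-linked, and of the 9 such genes tested 4 fell and 1 rose, with a median of −0.83. Pcolce, the enhancer of the proteinase that removes the C-terminal propeptide, stood at 0.13, 0.03 and 0.07 in the mutants and at 2.30, 2.14 and 2.14 in the controls. The values were tight within each genotype, and the difference was −2.12 ± 0.14 (4.33-fold lower, adjusted p = 0.00177). The lysyl oxidase family genes Loxl1 (−1.83, adjusted p = 0.0109) and Loxl2 (−1.07, adjusted p = 0.0169) fell as well, as did Adamts2, the N-propeptidase (−1.19, adjusted p = 0.0252). Adamts3, another N-propeptidase, rose by 0.67 (adjusted p = 0.0361); it was named after its value was seen, being the fifth call of the list.

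Collagen receptors gave 2 genes that fell and none that rose of 8 tested. Ddr2, the receptor kinase for fibrillar collagens, was −6.66, −6.88 and −5.51 in the mutants, 2 of which were above background, and −0.98, −1.11 and −2.08 in the controls. The fitted difference was −4.96 ± 0.45 (adjusted p = 0.0039) and passed without any 1 of the samples. Normexp correction gave −2.92 (adjusted p = 0.0013), and with a mutant value at background the size of the fall is not well measured. Itga11, an integrin subunit that binds type I collagen, fell by 1.08 (adjusted p = 0.0299), and the median over the 7 receptors above background on all arrays was −0.60.

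Of the basement membrane partners, 1 of 16 tested fell (Nid1, which links laminin to type IV collagen, −1.30, adjusted p = 0.0303). Lamb2, a laminin chain, rose (0.81, adjusted p = 0.0386), and the median over the 14 above background on all arrays was −0.10. Both counts lie near the shares over all genes tested, so they are no result about this list. Among genes of collagen breakdown, 2 of 11 tested fell and 2 rose, with a median of −0.68 over the 10 above background on all arrays. Mmp14, a membrane-bound collagenase, was 0.88, 2.67 and 1.46 in the mutants and 3.96, 3.43 and 3.50 in the controls (−1.96 ± 0.45, adjusted p = 0.0467), with Brg1d/d sample 2 nearest the controls (same-day −0.96). The inhibitor genes Timp3 (−1.01, adjusted p = 0.0214) and Timp4 (1.66, adjusted p = 0.0106; 1.07 after normexp correction) moved in opposite directions. Mmp1a, a collagenase gene, lay too close to background to be measured in the 3 controls. It was called higher by limma (adjusted p = 0.0280) and entered the test through the mutants. With each control value raised to the lowest signal among probes well above background on that array, the fold was 2.24. That fold is not a strict bound, since a probe not well above background can exceed that signal. After normexp correction the Mmp1a difference was 0.10 and was not called (adjusted p = 0.634).

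Among 12 factors upstream of collagen genes, 2 fell and none rose. Scx, the tendon lineage factor, differed by −1.14 (adjusted p = 0.0278), and Sox6, a partner of Sox9 at cartilage genes, by −0.92 (adjusted p = 0.0267). The median over the 11 of this list above background on all arrays was −0.18. P4ha2, Pcolce and Ddr2 passed whichever sample was left out, whereas the other called genes named from these lists each lost the call without at least 2 of the 6 samples, with adjusted p up to 0.162, except Adamts3, for which this was not run.

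**Figure D4:**
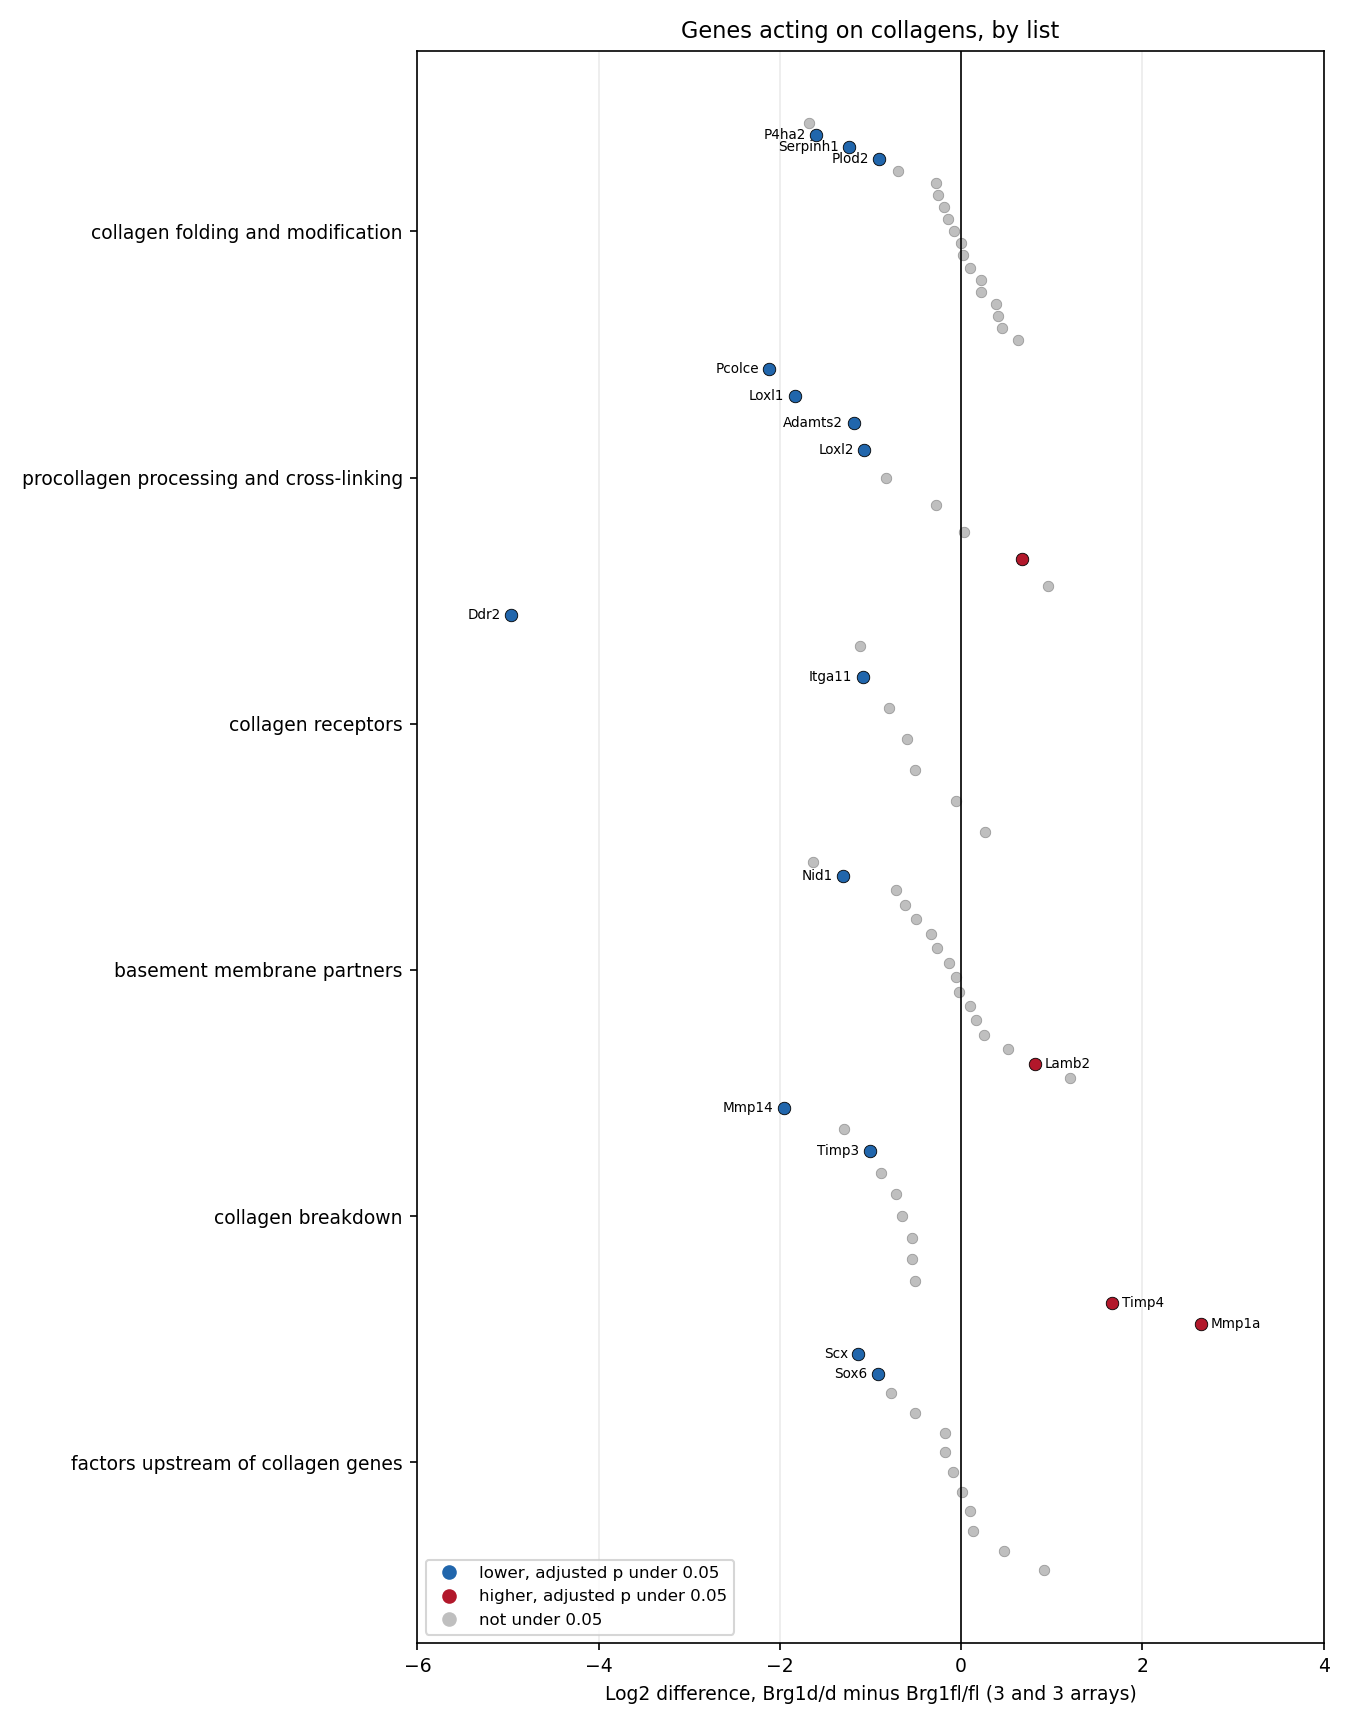
Log2 difference between Brg1d/d and Brg1fl/fl (x axis) for each tested gene of 6 lists of genes that act on collagens (y axis, one point per gene, ordered within its list); coloured points passed an adjusted p of 0.05 and the unlabelled red point is Adamts3. Ddr2 (−4.96) and Mmp1a are drawn at their fitted values, which rest on values partly or wholly at background in 1 genotype.

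Markers of tissues that hold collagen-making cells were measured in the same samples, as sums of signal relative to the 75th percentile. Heart muscle markers, 6 of 7 of which fell, summed to 9.15 to 13.7 in the mutants and 130.2 to 189 in the controls. Endothelial markers, with Cdh5 and Emcn of 7 lower, summed to 5.46 to 6.71 against 9.61 to 11.7. Markers of mesenchyme, with Pdgfrb of 7 lower, summed to 20.3 to 25.5 against 22.6 to 38.2, though 4 of the 7 differences were above 0 (median 0.22). Those of sclerotome and notochord, with none of 6 called, summed to 11.4 to 15.2 against 9.19 to 11.0. Foxa2 weighed most in these sums, at 3.26, 3.71 and 3.28 in the mutants and 2.63, 2.74 and 3.18 in the controls. The differences of the other 5 were below 0, and the median over the 6 was −0.39.

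A list for decidua and uterine stroma, maternal tissue that can adhere to an embryo and is rich in fibrillar collagen, summed to 0.55 to 0.88 in the mutants and to 2.81 to 10.6 in the controls. Its members went both ways, so the sum does not measure the amount of maternal tissue. Lum (−4.65), Dcn (−2.11) and Des (−2.37) fell. Lum weighed most in the control sums, at 0.90, 3.25 and 2.51 in controls 1, 2 and 3. The decidual prolactin Prl8a2 was called higher, with a fitted difference of 4.47 (limma adjusted p = 0.0459). It was above background on all 3 mutant arrays and 1 control, so the size of its rise is not well measured. Pgr was above background on 2 mutant arrays and no control, and Prl3c1 and Esr1 on no array. None of 9 yolk sac endoderm markers was called. Primitive red cells had 1 of 6 lower (Hemgn) and summed to 61.8 to 74.2 against 69.0, 241 and 274 in controls 1, 2 and 3. Leukocytes had 1 of 3 tested lower (Cd79b), summed to 0.17 to 0.25 against 0.18 to 0.20, with Spi1 above background on no array. Hemgn and Cd79b entered the test through the controls, with 2 mutant arrays above background. Of the markers above background on all 6 arrays, 0 of 5 for red cells and 0 of 2 for leukocytes were called lower. The part of these tissues in the collagen differences was not tested.

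The scan days bear on each call. With the scan day as a block, none of the 34 collagens passed limma's adjusted threshold (adjusted p 0.121 to 0.430 for the 13), and none of the 27854 probes did, while 14 collagens were lower and 2 higher at an unadjusted p under 0.05. With the arrays split into 2 labelling batches, inferred from the brightness of the labelling control and not given in the labels, and these as a block, Col6a1 (−2.27, adjusted p = 0.0337) and Col9a1 (−2.34, adjusted p = 0.0471) passed. The same-day differences of the 12 genes that fell ran from −3.20 to −1.02. All 13 called genes kept their sign, which follows from the lack of overlap and is not a separate check on the scan day. By mutant sample, the median of the 32 collagens against the control mean was −0.48, −0.58 and −0.49. Leaving out 1 sample at a time left 3 collagens called lower without Brg1d/d sample 1, 5 without sample 3 and 4 without control 2, and 10 to 13 without each of the other 3 samples. The same omissions took the probes called over the whole array from 2608 to 498, 479 and 473.

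**Figure D5:**
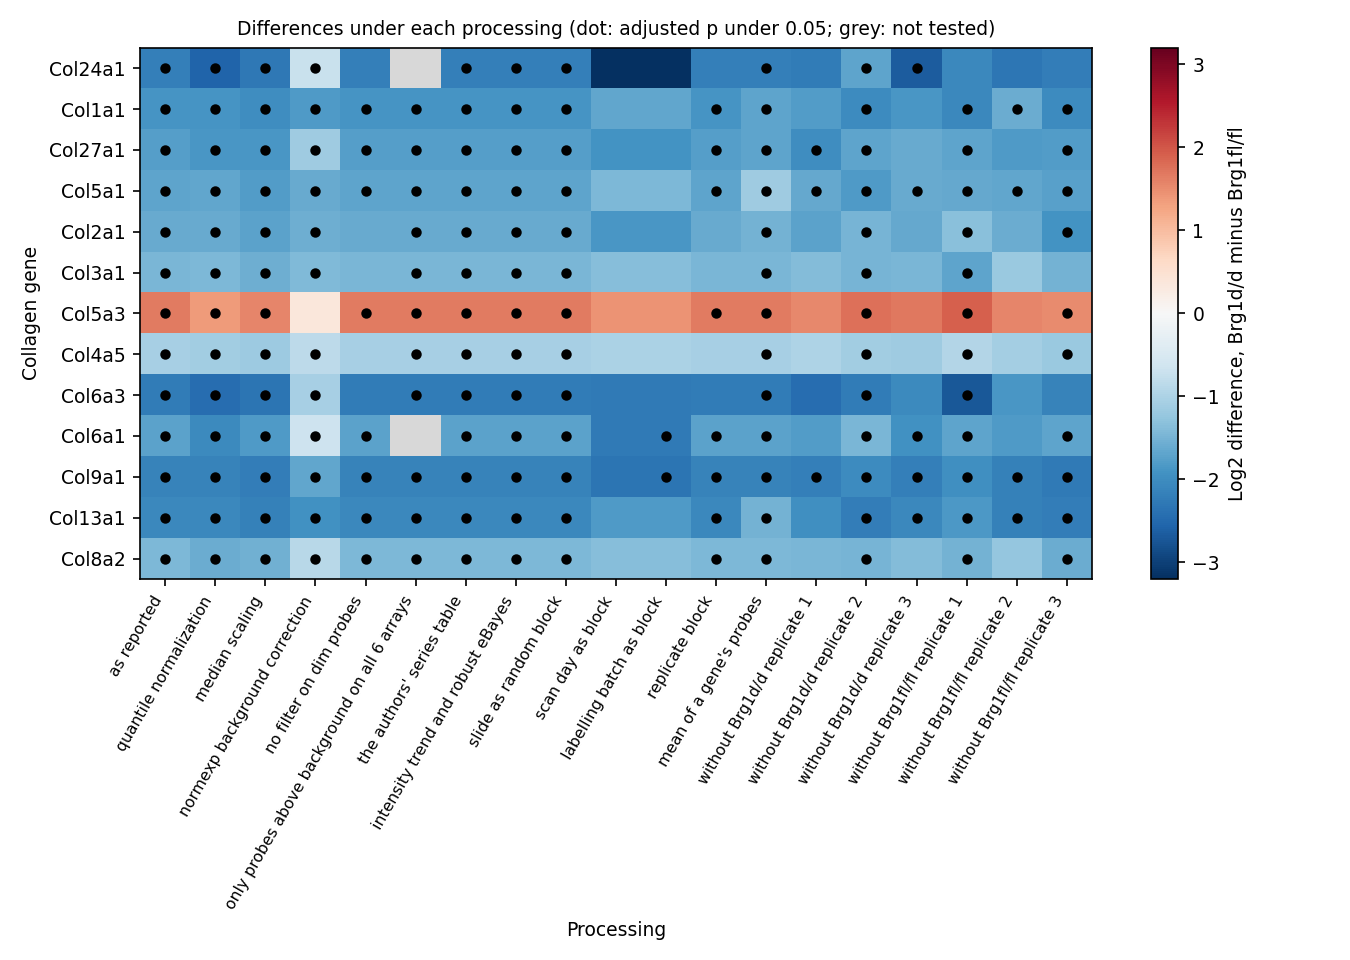
Log2 difference (colour) of the 13 called collagens (rows) under each way of processing the data (columns); dots mark an adjusted p under 0.05, and grey cells were not tested. Rows of the 13 called genes keep 1 colour throughout, whereas the dots thin out under the blocks for scan day and labelling batch and without Brg1d/d sample 1, Brg1d/d sample 3 or control 2.

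Collagens that the current RefSeq names add lay outside the name rule. Col6a4 (0.77, adjusted p = 0.192) and Col26a1 (−0.10, adjusted p = 0.861) did not pass, and the probe of Col6a6 and a further probe of Col11a1 were above background on no array.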

How the data were processed

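RNA of 6 whole-embryo samples (3 Brg1d/d, 3 Brg1fl/fl; groups from the labels) was hybridised to 1-colour Agilent arrays, 250 ng of total RNA each before labelling, per the labels. The deposited intensity values are Feature Extraction 9.5 processed signals: per the file headers, a fitted spatial background surface was subtracted and signals were detrended, with no scaling between arrays. The authors' deposited flags mark spots above background, saturated or outlying (53 to 83 outlier spots per array were left out). The series table held the same signals in 100% of spots within a relative tolerance of 0.0001.

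Here, log2 signals were centred on each array's 75th percentile and tested with limma 3.58.1 (lmFit and eBayes, two-sided, R 4.3.3) over 27854 probes. The remaining steps used Python 3.11.15. Probes were renamed through RefSeq where possible, 22944 by accession, 6664 by symbol and 3108 by synonym of 41174. For 31 of the 40 collagens the name came through an accession, and for all 40 RefSeq's symbol equalled the array's. Simulated data had 200 changed probes of 27854. In them, 4.5% of log2 changes of 1, 82.1% of changes of 2 and 100% of changes of 4 were recovered. There were 7 false calls of 132.

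The members, lists and partner pairs were chosen with earlier results of these data known. Values per array are given for every called collagen, for the gene with the brightest probe in each class, and for some of the called genes that act on collagens; of each list, up to 4 called genes with the largest differences are named. Alternatives covered scaling, background correction, filters, the test, blocks for slide, scan day, labelling batch and replicate number, the mean over a gene's probes, and each sample left out.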

Additional observations from a re-analysis of the deposited data

How the results depend on the processing

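The 12 genes lower, 1 higher and the median of −0.48 over 32 collagens changed as follows. Median scaling gave 13 lower (Col4a6 gained, adjusted p = 0.0449) and a median of −0.58, and normexp background correction 14 lower (Col14a1 and Col1a2 gained), 0 higher genes and a median of −0.38. Limma's intensity trend with robust fit gave 14 lower (Col1a2 and Col4a6 gained). Testing dim probes too left 7 lower. With the scan day as a block there were 0 lower and 0 higher in limma (14 and 2 at an unadjusted p under 0.05), and with the labelling batch 2 lower and 0 higher, with a median of −0.58 in both. The 3 Smarca4 probes were then at −2.09, −2.52 and −1.67, not passing in either (adjusted p 0.0547 to 0.332). Replicate numbers did not pair the samples (correlations of −0.13, 0.08 and 0.09 between same-numbered samples), and the fit with the replicate block gave 7 lower and, for the brightest Smarca4 probe, −2.69 with an adjusted p of 0.0530. Leaving out each replicate in turn gave 3 to 13 lower genes, 0 to 2 higher and medians of −0.60 to −0.35. The brightest Smarca4 probe ranged from −3.00 to −2.42, not passing without Brg1d/d replicate 3 (−2.67), and the dimmest from −2.28 to −1.83, not passing at −2.02, −1.93 and −2.16 without Brg1d/d replicate 1, Brg1d/d replicate 3 and Brg1fl/fl replicate 2. Of the tests of these summary values, 76 were counted as unchanged. For a Smarca4 probe this meant the same side of the threshold, and for the median a value within the spread of replicates. For a number of genes it meant a fixed ratio to the reported number, so that 13 or 14 lower counted as unchanged. Of the tests of the called collagens, the gene with the brightest probe in each class and the genes picked from the lists, 413 kept their side, 173 lost the call and 4, all of Col1a2, gained it. None of these changed sign. Of the collagens that did not pass, 4 did: Col17a1 (−0.12 with quantile normalization, −0.17 with normexp), Col20a1 (−0.14 and −0.18 in these, −0.35 with either block), Col11a2 (0.33 for the mean of its probes) and Col9a2 (0.22 without Brg1d/d replicate 2, 0.0049 without Brg1fl/fl replicate 1). In the simulated data, 4.5% of 2-fold changes were recovered, with 200 changed probes and 132 calls. The real data gave 2608 calls, and the adjustment depends on how many probes change, so this share does not carry over to them.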
